A study of Homo sapiens with 6 samples.

Results

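The cornified envelope and S100 genes described here are 10 genes of squamous differentiation: the small proline-rich protein genes SPRR1A, SPRR1B, SPRR2A and SPRR3, the envelope genes IVL, TGM1 and CSTA, and the S100 genes S100A7, S100A8 and S100A9. They are 10 of the 18665 genes with a probe on the array, and each of them has 1 probe. The members were chosen on TE13R against TE13 values of these same arrays that were already known, so the difference between the lines is a description with no test. The changes over time were tested.

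Expression was measured in TE13R, a radioresistant derivative of the human esophageal squamous cancer cell line TE13, and in TE13 itself, at 0, 8 and 24 h after X-ray irradiation from a 6 MV linear accelerator. TE13R had been established by repeated fractionated irradiation of TE13, is called a clone in the study, and carries no engineered change according to the sources used here. Each line and time point has 1 deposited sample on an Illumina Human-6 V3 array of 1 colour, 6 in all and called arrays here, and the study's statement that profiling was done in triplicate is not matched by replicate numbers in the labels, so whether a deposited value comes from 1 array or is a mean is not stated. The groups were TE13R at 0, 8 and 24 h and TE13 at 0, 8 and 24 h, and the labels do not give the dose or say whether the 0 h cells had been irradiated. Both lines grew in the same serum-containing medium.

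Squamous epithelial cells that leave the basal layer replace their plasma membrane with a cornified envelope, a protein shell crosslinked by transglutaminases. Involucrin lays down its scaffold, and small proline-rich proteins, cystatin A and, later, loricrin are joined to it. In the esophagus, which does not fully keratinise in humans, the small proline-rich proteins are the leading envelope proteins, and their loss is a known feature of esophageal squamous cancer. S100 proteins are small calcium-binding proteins, and S100A8 and S100A9 pair into calprotectin, which is abundant in neutrophils and in stressed or inflamed squamous epithelium. Most of these genes lie side by side on chromosome 1 in the epidermal differentiation complex.

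The stretch just upstream of each transcription start is shown first, because 5 members share a motif there. RefSeq windows of GRCh38.p14, 250 bases before the start, were at hand for 8 of the 10 members, and none for TGM1 and CSTA was used here. Capitals mark the AP-1 motif TGANTCA, which reads the same on both strands, and the TATA box word TATAAA, searched on both strands. The windows are chr1:152983831-152984080 on the plus strand for SPRR1A, chr1:153030953-153031202 on the plus strand for SPRR1B, chr1:153057513-153057762 on the minus strand for SPRR2A, chr1:153001499-153001748 on the plus strand for SPRR3, chr1:152908296-152908545 on the plus strand for IVL and chr1:153391074-153391323 on the minus strand for S100A8, which has 3 annotated starts.
SPRR1A: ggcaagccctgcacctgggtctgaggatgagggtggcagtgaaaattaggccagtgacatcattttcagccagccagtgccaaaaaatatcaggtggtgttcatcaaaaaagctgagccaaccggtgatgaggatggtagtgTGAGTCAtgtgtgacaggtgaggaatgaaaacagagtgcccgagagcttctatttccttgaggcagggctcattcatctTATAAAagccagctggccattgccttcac
SPRR1B: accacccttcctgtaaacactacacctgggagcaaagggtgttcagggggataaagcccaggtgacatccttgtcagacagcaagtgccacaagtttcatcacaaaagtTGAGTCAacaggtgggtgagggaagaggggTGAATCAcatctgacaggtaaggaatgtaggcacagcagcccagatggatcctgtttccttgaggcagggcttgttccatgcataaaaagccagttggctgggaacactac
SPRR2A: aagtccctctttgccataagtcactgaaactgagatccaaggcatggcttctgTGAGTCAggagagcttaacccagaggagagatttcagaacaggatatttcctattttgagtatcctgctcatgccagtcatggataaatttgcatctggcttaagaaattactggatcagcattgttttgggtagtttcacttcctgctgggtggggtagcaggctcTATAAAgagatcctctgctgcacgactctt
SPRR3: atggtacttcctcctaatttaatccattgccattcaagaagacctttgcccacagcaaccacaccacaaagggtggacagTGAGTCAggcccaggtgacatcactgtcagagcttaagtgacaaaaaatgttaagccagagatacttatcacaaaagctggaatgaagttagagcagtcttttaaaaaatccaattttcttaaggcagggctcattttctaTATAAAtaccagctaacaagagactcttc
IVL: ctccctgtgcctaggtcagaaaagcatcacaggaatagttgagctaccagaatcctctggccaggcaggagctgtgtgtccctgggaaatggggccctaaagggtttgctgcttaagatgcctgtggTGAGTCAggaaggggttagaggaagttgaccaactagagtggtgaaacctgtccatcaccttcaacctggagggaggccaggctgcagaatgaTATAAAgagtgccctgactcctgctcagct
S100A8: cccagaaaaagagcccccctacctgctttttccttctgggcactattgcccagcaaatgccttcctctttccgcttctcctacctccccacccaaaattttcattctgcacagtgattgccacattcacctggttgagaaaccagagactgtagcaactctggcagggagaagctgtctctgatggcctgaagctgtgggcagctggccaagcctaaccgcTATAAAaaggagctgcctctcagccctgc

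An AP-1 word was found in all 4 small proline-rich members and in IVL, 5 of the 8 members with a window, and in none of the windows of S100A7, S100A8 and S100A9. SPRR1B held 2 of them, starting 141 and 111 bases before the start, and SPRR1A held 1 at 108 bases. In SPRR2A, SPRR3 and IVL the word began 197, 170 and 123 bases before the start. TATAAA was found in at least 1 window of 7 of the 8 members, the exception being SPRR1B. Over all 27305 genes with such a window 8.06% held the AP-1 motif and 13% held TATAAA in at least 1 window (6.57% and 10.7% of the 35116 windows). Related genes held them often too: the AP-1 motif was in 2 of 4 other small proline-rich genes, 9 of 29 late cornified envelope and fused S100 genes and 5 of 17 other S100 genes, and TATAAA in 4 of 4, 15 of 29 and 7 of 17. IVL carried both words and was below the detection limit on all 6 arrays. The grainyhead motif AACNGGTT was searched too and is not marked. It was in 1 of the 8 members, S100A9, against 1.85% of all genes. In the other small proline-rich, late cornified envelope and fused S100, and other S100 genes it was in 0 of 4, 2 of 29 and 0 of 17. A match describes the letters of the window and says nothing of its use.

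The deposited values of the 6 arrays were almost alike in distribution, and the arrays differed mainly by time. The way of normalizing was not stated, so the likeness in distribution cannot be read as a property of the RNA. Array medians were 7.95 to 7.96 intensity units, and 37.3% of probes on each array lay above the detection limit of 20.2, set at 3 times the spread of the negative values about 0 (background had been subtracted, so values can be negative). Over the 12783 genes that passed a filter on dim probes, arrays of the same time point correlated between the lines at 0.966 to 0.970, whereas 0 h arrays correlated with later arrays at 0.856 to 0.923. All 10 squamous epithelial markers matched on the array, among them KRT5, KRT14 and DSG3, were above the limit on all 6 arrays. Their levels were not all alike in the lines. The log2 difference, TE13R minus TE13, at 0, 8 and 24 h was -1.67, -1.78 and -2.81 for KRT14 and 5.59, 2.42 and 1.3 for KRT15. Of 7 simple and glandular epithelium markers on the array, 5 were above the limit on all 6 arrays too, among them KRT18 and KRT19. Of 13 leukocyte markers, 7 never passed the limit, including PTPRC, ITGAM, CSF3R, MPO and S100A12, and the summed list was 2564 to 4866 in TE13R and 1453 to 3676 in TE13, mostly CD68. Other genes of that list were above it: FCGR3B on all 6 arrays, CD14 on 5, and MS4A1 and CSF1R on 4. At 8 h against 0 h in limma FCGR3B, CD14 and MS4A1 rose by 1.07, 1.19 and 1.23 on the log2 scale (adjusted p = 0.014, 0.031 and 0.031). CD68 and CSF1R, with estimates of 0.37 and -0.03, did not pass the test (adjusted p = 0.24 and 0.96). S100A8 and S100A9 rose in the same contrast, as did 27.5% of all genes. Of 9 fibroblast and endothelial markers 4 never passed it, and their sum was 220 to 1032 in TE13R and 144 to 720 in TE13. The RNA came from cultured cell lines. Where the signal of these leukocyte, fibroblast and endothelial markers came from, and its part in the results below, was not tested.

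Of the 10 members, 9 passed the filter, and S100A7 did not. A probe passed if it lay in the upper 50% of values on at least 3 arrays. IVL did so on the 3 TE13 arrays only, and the other 8 on all 3 TE13R arrays, so those that are high in TE13R could pass through that line alone. On the log2 scale with 16 added to each intensity, 5 of the 9 tested members were at least 2-fold higher in TE13R at all 3 time points: SPRR1A, SPRR1B, SPRR2A, S100A8 and S100A9. This was the case for 0.907% of all genes tested. By time point the count was 7 of 9 at 0 h, 5 of 9 at 8 h and 6 of 9 at 24 h, where all genes gave 6.27%, 4.32% and 5.3%. No member was at least 2-fold lower in TE13R at all 3 time points, against 1.33% of all genes. Since the members were chosen for this contrast, nothing is read from these counts. The median difference over all genes was -0.004, 0.011 and 0.038 at 0, 8 and 24 h.

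**Figure D1:**
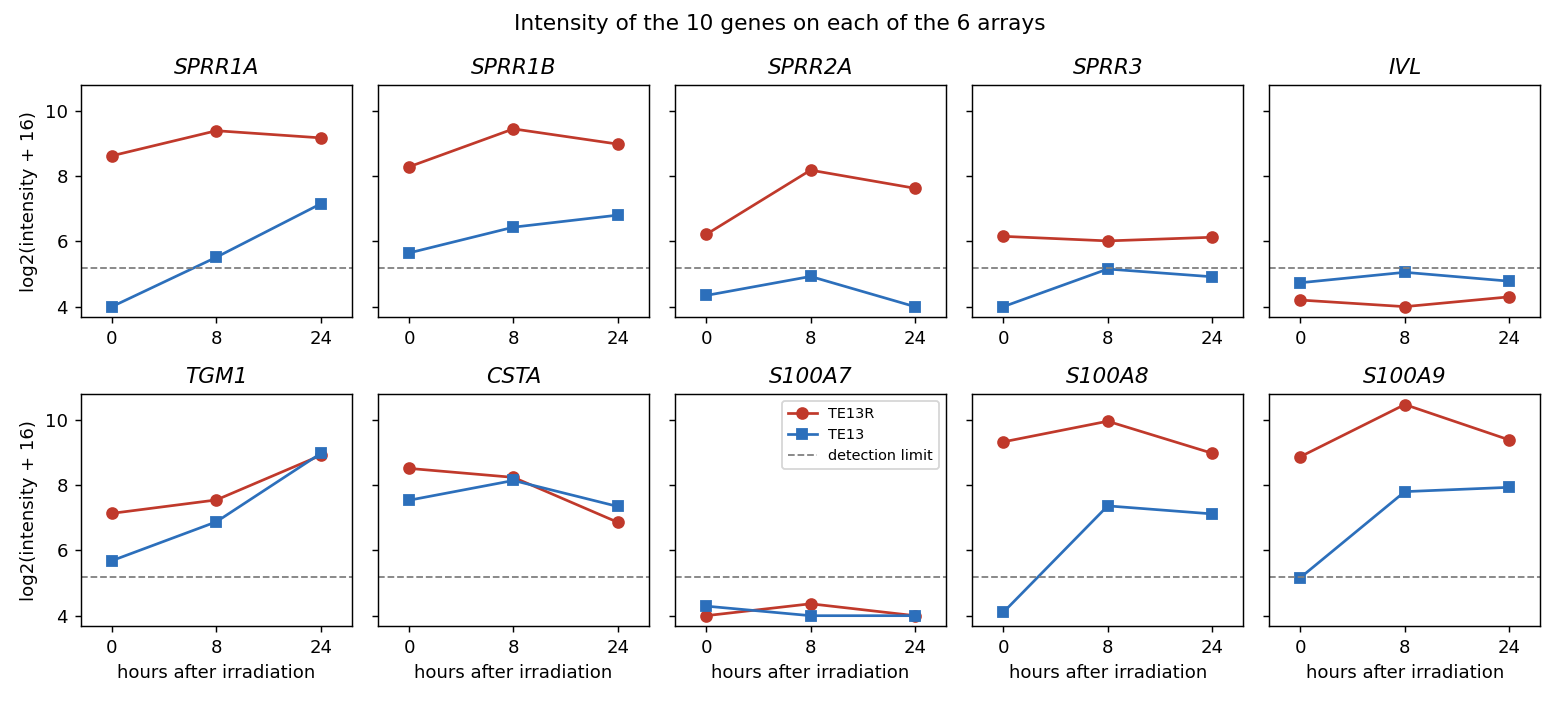
Intensity of the 10 genes as log2(intensity + 16) at 0, 8 and 24 h after irradiation, TE13R in red circles and TE13 in blue squares, 1 array per point, with the detection limit of 20.2 as a dashed line. SPRR1A, SPRR1B, SPRR2A, SPRR3, S100A8 and S100A9 lie higher in TE13R at every time point, TGM1 and CSTA cross, and IVL and S100A7 stay below the limit.

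SPRR1A encodes a small proline-rich protein that is crosslinked into the envelope and is induced by injury in several tissues. Its probe (ILMN_1716591) read 379, 657 and 562 in TE13R at 0, 8 and 24 h, against -2.27, 29.7 and 126 in TE13. All 3 TE13R arrays were above all 3 TE13 arrays. The gene was at least 18.8-fold higher in TE13R at 0 h, where TE13 was below the detection limit, 22.1-fold higher at 8 h and 4.46-fold higher at 24 h. The mean difference of log2(intensity + 16) was 3.51 ± 1.34 (SD over the 3 time points), with the undetected value taken as it stands, and the gap was narrowest at 24 h, where the TE13 array was brightest.

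SPRR1B, a close relative that also joins the envelope by transglutaminase crosslinks, was the only small proline-rich gene above the limit on all 6 arrays. It read (ILMN_1711174) 297, 684 and 490 in TE13R and 34.1, 70.6 and 95.9 in TE13. The lines did not overlap, and TE13R was 8.71-, 9.69- and 5.11-fold higher at 0, 8 and 24 h. Its mean log2 difference of 2.61 ± 0.42 (SD over the 3 time points) had a smaller spread over time than that of SPRR1A.

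SPRR2A belongs to a subfamily of near-identical genes that is strongly induced in inflamed and healing epithelium. Its probe (ILMN_1795359) read 58.3, 275 and 182 in TE13R, against 4.3, 14.4 and -0.92 in TE13, where it never passed the limit. The difference was therefore a bound: at least 2.89-fold at 0 h, at least 13.6-fold at 8 h and at least 9.01-fold at 24 h. Bounds give no order of the time points.

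SPRR3, known as the small proline-rich protein of the esophagus and other internal squamous linings, was dim. It read (ILMN_1810835) 55.3, 48.7 and 53.9 in TE13R, against -2.67, 19.6 and 14.2 in TE13. The TE13R arrays were nearly level and all above the limit, whereas the TE13 arrays were all below it. The gene was at least 2.74-, 2.42- and 2.67-fold higher in TE13R at 0, 8 and 24 h. With 16 added to each intensity its log2 difference at 8 h was 0.86, so it is not among the 5 members counted above.

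Of the other 7 small proline-rich genes with a probe, 3, SPRR2B, SPRR2C and SPRR2F, never passed the limit. SPRR2D, next to SPRR2A on the chromosome, read 15.8, 77.8 and 162.6 in TE13R and at most 0.1 in TE13. SPRR2E read 22, 50.2 and 13.3 in TE13R, against 0.5, -1.9 and -11.3 in TE13. SPRR2 transcripts are so alike that a probe for 1 of them may bind others, and how far the SPRR2A, SPRR2D and SPRR2E probes share signal was not tested. None of the 3 genes of this list that passed the filter was called in any time contrast or differed 2-fold or more between the lines at each time point. SPRR2D missed the 2-fold rule narrowly. Its log2 differences were 0.99, 2.54 and 3.48 at 0, 8 and 24 h, with both 0 h arrays below the limit.

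Among the other envelope members, the scaffold gene IVL was not detected. It read (ILMN_1775883) 2.36, -2.45 and 3.70 in TE13R and 10.6, 17.2 and 11.5 in TE13, all below the limit. No fold is given for it, and a level below the limit does not show that the transcript was absent.

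TGM1 encodes the membrane-bound transglutaminase that crosslinks involucrin and the small proline-rich proteins. Its probe (ILMN_1721134) read 125, 171 and 466 in TE13R, against 35.5, 102 and 487 in TE13. TE13R was 3.51-fold higher at 0 h and 1.68-fold higher at 8 h, and the lines were almost level at 24 h (0.958-fold). The values of the lines overlapped, and in both lines the 24 h array was the brightest.

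CSTA encodes cystatin A, an inhibitor of cysteine proteases that is also an envelope protein. It read (ILMN_1669888) 350, 287 and 100 in TE13R, against 170, 267 and 147 in TE13. TE13R was 2.06-fold higher at 0 h, 1.07-fold higher at 8 h and lower at 24 h (0.683-fold), so the lines overlapped. The mean log2 difference was 0.20, with a spread over time of 0.74 (SD), and it was -0.19 without the 0 h arrays.

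S100A8 and S100A9, the 2 subunits of calprotectin, had some of the widest gaps. S100A8 read (ILMN_1729801) 627, 982 and 489 in TE13R, against 1.25, 149 and 123 in TE13. It was at least 31.1-fold higher in TE13R at 0 h, where TE13 was at background, and 6.59- and 3.97-fold higher at 8 h and 24 h. Every TE13R array was above every TE13 array.

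S100A9 read (ILMN_1750974) 454, 1406 and 655 in TE13R, against 20.0, 207 and 229 in TE13, where the 0 h value lay just under the limit. TE13R was at least 22.5-fold higher at 0 h, 6.78-fold higher at 8 h and 2.86-fold higher at 24 h. As for S100A8, the gap was narrower at 8 h and 24 h, when the TE13 arrays were much brighter than at 0 h. S100A7, psoriasin, an antimicrobial S100 protein of inflamed skin, read (ILMN_1757351) -7.6, 4.6 and -10.5 in TE13R and 3.6, -6.2 and -11.4 in TE13 and was never above the limit.

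**Figure D2:**
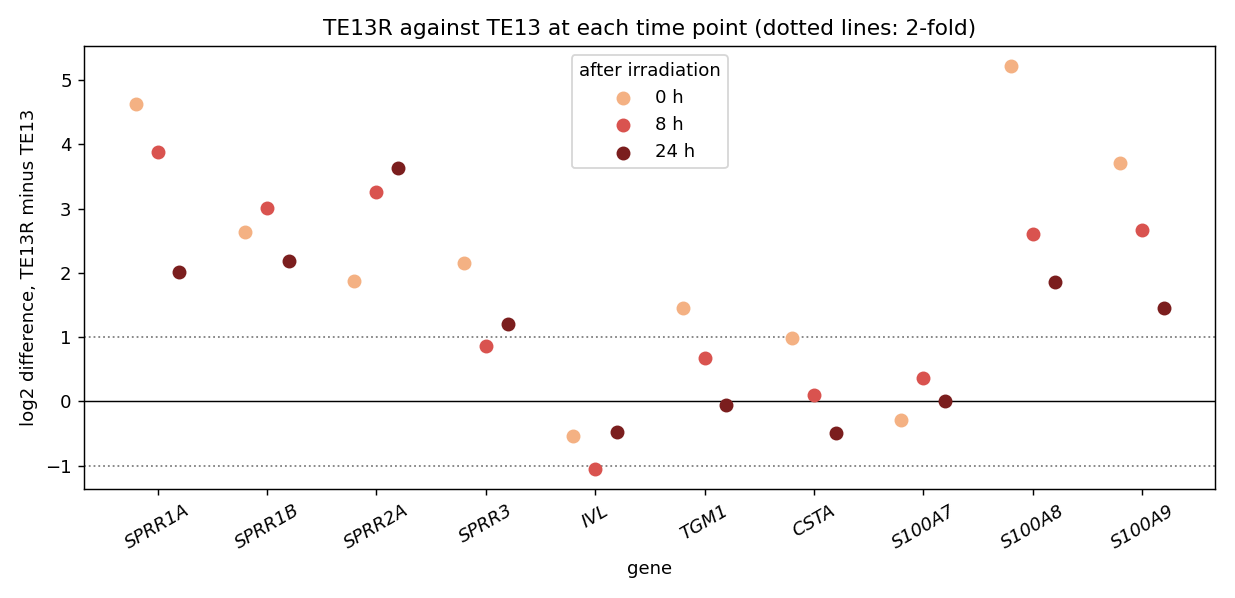
Log2 difference, TE13R minus TE13, of log2(intensity + 16) for each of the 10 genes at 0, 8 and 24 h, 1 pair of arrays per point, with dotted lines at a 2-fold difference. Points that rest on a TE13 value alone below the detection limit are SPRR1A, S100A8 and S100A9 at 0 h, and SPRR2A and SPRR3 at every time point. IVL and S100A7 were below the limit in both lines at every time point, so their points are not measured differences. S100A8 and S100A9 differ most at 0 h, even as bounds. For SPRR1A the order of 0 h and 8 h is not set, and for SPRR2A and SPRR3 no order is. TGM1 and CSTA come down to about 0 or below at 24 h.

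Over time, the question was whether the genes changed between time points on average over the 2 lines. A call does not show a change in each line. No unirradiated 8 h or 24 h culture was among the arrays. Effects of irradiation, time in culture and handling therefore cannot be told apart. The 8 h and 24 h arrays were set against 0 h, and 24 h against 8 h, in limma with the line as a term, so that the 2 lines are the repeat. The first 2 contrasts share the 0 h arrays. Over all genes 27.5% rose and 28.8% fell at 8 h against 0 h, 27.8% rose and 27.8% fell at 24 h against 0 h, and 7.67% rose and 5.23% fell at 24 h against 8 h. Of the 9 members tested, 4 rose at 8 h, 4 rose at 24 h, and 1 rose at 24 h against 8 h. None fell in any of the 3 limma contrasts; at an unadjusted p under 0.05 the count that fell was 0, 1 and 1, which was CSTA in the last 2, and the t-test named in the methods called no fall after adjustment.

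S100A9 rose most clearly at 8 h, by 2.12 on the log2 scale (SE 0.47, adjusted p = 0.00613), and was 3.1-fold brighter at 8 h in TE13R and at least 10.3-fold brighter in TE13. It was also higher at 24 h than at 0 h (log2 difference 1.64, SE 0.47, adjusted p = 0.0193). In TE13R, however, the 24 h array was 0.466 times the 8 h array, while in TE13 it was 1.1 times.

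S100A8 rose at 8 h by 1.95 (SE 0.69, adjusted p = 0.0415), and its estimate at 24 h was 1.33 (SE 0.69, adjusted p = 0.137). The TE13 line carried most of it: the array was at least 7.39-fold brighter at 8 h and at least 6.11-fold brighter at 24 h, whereas the TE13R arrays were 1.56 and 0.78 times the 0 h array. With only 1 array for each line and time point, the difference between the lines in their time course was not tested.

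SPRR1B rose by 0.98 at 8 h (SE 0.31, adjusted p = 0.0275) and by 0.93 at 24 h (SE 0.31, adjusted p = 0.0341). It was 2.3-fold brighter at 8 h in TE13R and 2.07-fold brighter in TE13, so the 2 lines moved by similar amounts. SPRR1A was higher at 24 h than at 0 h (log2 difference 1.85, SE 0.56, adjusted p = 0.023), and its estimate of 1.14 at 8 h did not pass the test (adjusted p = 0.117). In TE13R the array was 1.73-fold brighter at 8 h and 1.48-fold brighter at 24 h, and in TE13 at least 1.47-fold and at least 6.25-fold brighter.

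SPRR2A rose at 8 h by 1.28 (SE 0.47, adjusted p = 0.048), and the 24 h estimate was 0.54 (adjusted p = 0.37). The 8 h call rests on TE13R, in which the array was 4.72-fold brighter at 8 h, since all TE13 arrays were below the limit. SPRR3 had estimates of 0.51 and 0.44 at 8 h and 24 h (adjusted p = 0.338 and 0.406), and its 95% intervals ran from -0.46 to 1.48 and from -0.53 to 1.42.

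TGM1 had the largest change of the members at 24 h, 2.53 against 0 h (SE 0.39, adjusted p = 0.00131), and was the member called at 24 h against 8 h (1.73, SE 0.39, adjusted p = 0.0292). The array was 3.74-fold brighter at 24 h than at 0 h in TE13R and 13.7-fold brighter in TE13. At 8 h its estimate was 0.80 (adjusted p = 0.112). CSTA had negative estimates at 24 h, -0.92 against 0 h and -1.09 against 8 h, which did not pass the test (adjusted p = 0.0674 and 0.0965). Its TE13R array at 24 h was 0.287 times the 0 h array, and its TE13 array was 0.864 times. IVL, below the limit throughout, had estimates of 0.06 and 0.07.

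**Figure D3:**
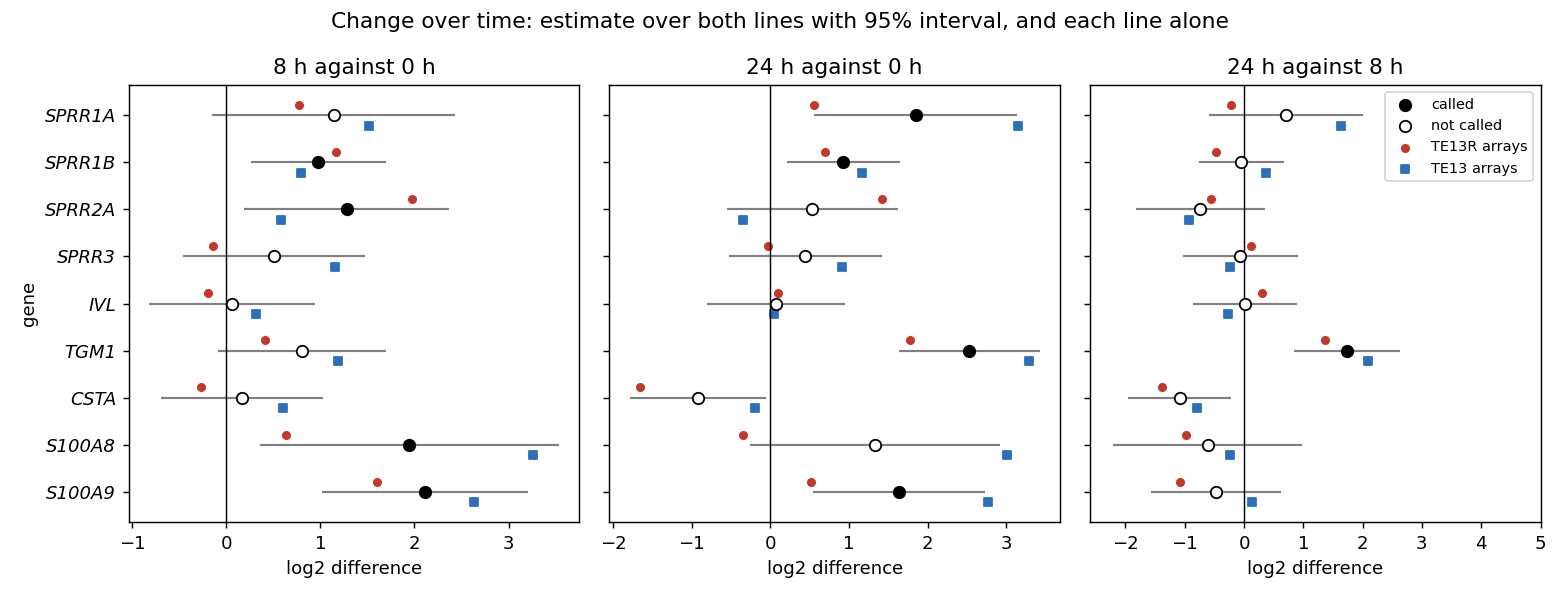
Log2 change over time of the 9 members tested, at 8 h against 0 h, 24 h against 0 h and 24 h against 8 h. Black and white circles are the limma estimates over both lines with 95% intervals, black where the adjusted p is under 0.05, and small red circles and blue squares are TE13R and TE13 alone. TGM1 stands to the right at 24 h in both lines, and the S100A8 points of the 2 lines lie far apart.

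On 6 arrays the members' log2 intensities followed each other closely within the S100 pair (Pearson r 0.98 for S100A8 and S100A9) and the SPRR1 pair (0.96 for SPRR1A and SPRR1B). SPRR3 and S100A8 also ran together (0.97). CSTA did not follow them (0.06 with SPRR1A), and TGM1 and CSTA ran apart (-0.50). These values describe 6 arrays that share 2 lines and 3 time points, and carry no p. Because the choice of members used the difference between the lines, those higher in TE13R run together in part through that choice. SPRR3 passed the limit in TE13R only, so its r with S100A8 cannot be separated from that difference. Nothing about shared control is read from the r between such members. Of all genes tested, the most like S100A8 over the 6 arrays were CTIF (0.998), SLCO3A1 (0.99) and SQOR (0.980), and SQOR (0.993) and SLCO3A1 (0.987) were again among the 3 most like SPRR3. The most like SPRR1A was BDKRB1 (0.996), a receptor for kinins. TGM1 had 203 genes with r over 0.95, headed by GSTO2 (0.998), whereas CSTA had 4, headed by ARRDC3 (0.972).

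Along chromosome 1, 8 of the 10 members lie in the stretch from S100A10 to S100A1, with TGM1 on chromosome 14 and CSTA on chromosome 3. The stretch holds 63 protein-coding genes in RefSeq, of which 57 have a probe, 26 were above the limit on at least 1 array and 11 on all 6. On the log2(intensity + 16) scale 5 of the 57 genes were at least 2-fold higher in TE13R at all 3 time points. Of all genes tested, 0.907% were. All 5 were members, which were chosen for this contrast, so nothing is read from this count or from their place in the stretch. None of the 20 other genes above the limit on at least 1 array met the rule. SPRR2D missed it at 0 h only, with a log2 difference of 0.99. No gene of the stretch was at least 2-fold lower at all 3 time points, against 1.33% of all genes tested.

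**Figure D4:**
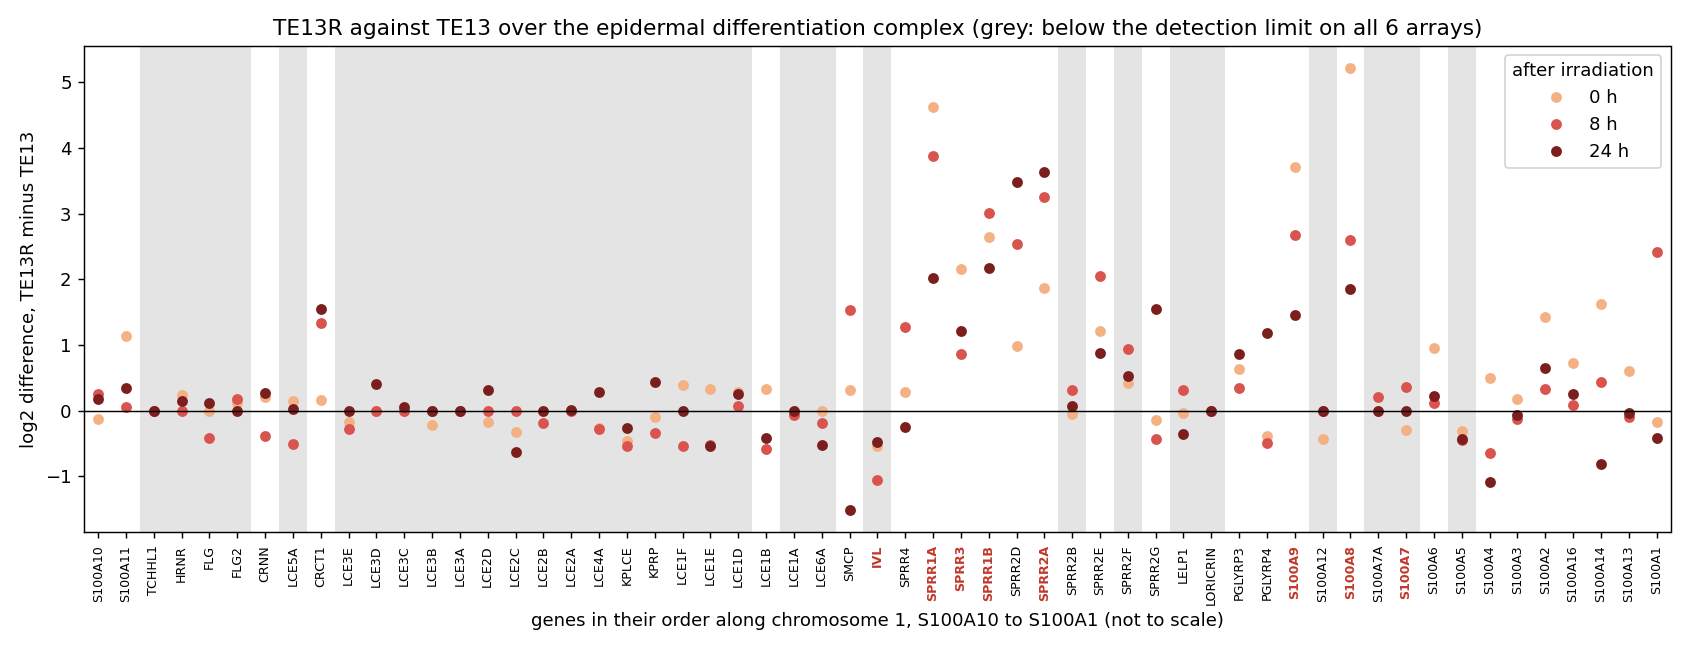
Log2 difference, TE13R minus TE13, at 0, 8 and 24 h for the 57 genes with a probe in the chromosome 1 stretch, in gene order and not to scale, members in bold red. Grey bands mark the 31 genes below the detection limit on all 6 arrays. SPRR1A, SPRR1B, SPRR2A, S100A8 and S100A9 are above the 2-fold level of 1 at all 3 time points. Some other genes pass it at 1 or 2 of them, such as SPRR2D at 8 h and 24 h (0.99 at 0 h) and S100A1 at 8 h.

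The late envelope genes of the same stretch were largely not detected on these arrays. Of 27 late cornified envelope and fused S100 genes with a probe, 23 never passed the limit, among them LORICRIN, the major protein of the epidermal envelope, FLG, the filaggrin precursor, and all LCE3 genes. CRNN, cornulin, an esophageal fused S100 protein, was above it on all 6 arrays, at 64.5, 33.8 and 38.8 in TE13R and 53.8, 49.3 and 29.5 in TE13. CRCT1 was the one called over time, 1.33 higher at 24 h than at 0 h (SE 0.44, adjusted p = 0.035). It read 4.6, 24.3 and 67.5 in TE13R and 2.4, -0.4 and 12.5 in TE13, where it never passed the limit.

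Other envelope proteins, inhibitors and crosslinking enzymes were measured by 14 genes that passed the filter, of 18 on the array. At 8 h 3 rose and 3 fell, at 24 h 5 rose and 3 fell, and none differed 2-fold or more between the lines at each time point. Their median log2 differences, TE13R minus TE13, were 0.69, -0.13 and -0.28 at 0, 8 and 24 h. At 0 h the values ran from -0.69 (TGM2) to 2.01 (SCEL). CNFN, cornifelin, rose by 2.44 (SE 0.37, adjusted p = 0.0011) and SLPI, a secreted protease inhibitor, by 2.27 (SE 0.24, adjusted p = 0.00031) at 8 h. ANXA1, an annexin of the envelope, fell by 2.25 (SE 0.18, adjusted p = 0.00022), and DSP, desmoplakin, fell by 1.60 (SE 0.18, adjusted p = 0.00038). At 24 h against 8 h 2 genes rose, PPL and ANXA1.

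Of 16 proteases, lipid enzymes and inhibitors of the upper epidermis, 11 passed the filter. At 8 h 4 rose and 1 fell, and at 24 h 5 rose in limma. Between the lines the median log2 differences, TE13R minus TE13, were 0.81, 0.06 and 0.29 at 0, 8 and 24 h. At 0 h the values ran from -0.55 (KLK5) to 3.05 (KLK13). ALOXE3, a lipoxygenase of the skin barrier, rose by 2.26 at 8 h (SE 0.32, adjusted p = 0.00083) and by 2.59 at 24 h (SE 0.32, adjusted p = 0.00072). KLK8, a kallikrein protease, rose by 1.98 at 8 h (SE 0.52, adjusted p = 0.013).

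Beyond the members, the list of other S100 genes has 19 genes on the array, of which 14 passed the filter. It includes S100PBP, which encodes a binding protein and is no S100 gene. At 8 h 8 of the 14 rose and S100PBP fell, and at 24 h 7 rose and S100PBP fell, where 27.5% and 27.8% of all genes rose. S100A2, an S100 protein of basal epithelial cells, read 4435, 15612 and 5830 in TE13R and 1646, 12456 and 3718 in TE13, and rose by 2.36 at 8 h (SE 0.25, adjusted p = 0.00032). Both lines had their highest S100A2 value at 8 h, and the gene fell by 1.58 at 24 h against 8 h (SE 0.25, adjusted p = 0.014). S100A4 rose by 1.79 at 8 h (SE 0.34, adjusted p = 0.0029) and S100P by 1.89 at 24 h (SE 0.46, adjusted p = 0.0091). None of the 14 differed 2-fold or more between the lines in 1 direction at each time point. At 0 h alone their log2 differences, TE13R minus TE13, ran from -0.76 (S100A7L2) to 2.2 (S100P). Their medians at 0, 8 and 24 h were 0.55, 0.07 and 0.2, where all genes gave -0.004, 0.011 and 0.038. S100A12, the third calgranulin, whose gene lies between S100A9 and S100A8, was never above the limit.

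**Figure D5:**
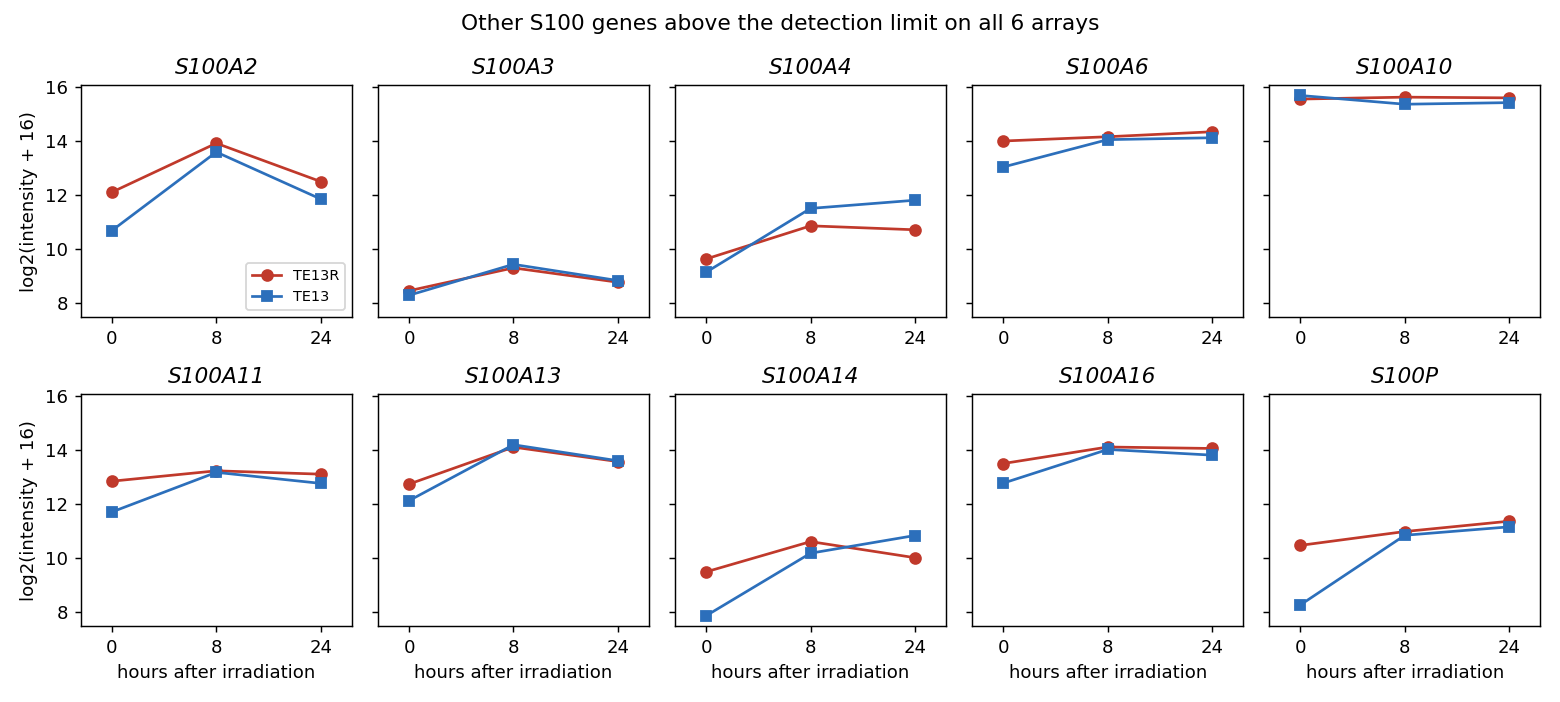
Intensity as log2(intensity + 16) at 0, 8 and 24 h for the 10 other S100 genes above the detection limit on all 6 arrays, TE13R in red circles and TE13 in blue squares, 1 array per point. S100A2 peaks at 8 h in both lines, S100A10 is nearly level, and the lines lie close together for most genes at 8 h.

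Of the genes for receptors and partners of the S100 proteins, TLR4 and CD36 were never above the limit. AGER, a receptor for S100 proteins, fell by 1.22 at 24 h against 0 h (SE 0.36, adjusted p = 0.02). Its 24 h values, 5.7 in TE13R and 12.5 in TE13, were below the limit. ANXA2, the partner of S100A10, fell by 1.55 at 8 h (SE 0.16, adjusted p = 0.00028).

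Transcription factors that act on squamous differentiation were measured by 30 of 31 genes that passed the filter, and none differed 2-fold or more between the lines at each time point. Their median log2 differences, TE13R minus TE13, were 0.49, 0.22 and 0.01 at 0, 8 and 24 h. At 0 h the values ran from -0.42 (NOTCH1) to 2.6 (ELF3). At 8 h 5 rose and 10 fell, at 24 h 9 rose and 4 fell, and at 24 h against 8 h 7 rose and 1 fell. Among genes of the AP-1 factor, whose motif is marked in the sequences above, FOSL1 read 1997, 14535 and 4946 in TE13R and 1736, 8466 and 2963 in TE13, and rose by 2.56 at 8 h (SE 0.19, adjusted p = 0.00021). JUN rose by 1.66 at 8 h (SE 0.21, adjusted p = 0.00049) and by 2.52 at 24 h (SE 0.21, adjusted p = 0.00055). The other AP-1 genes on the list differed in course. JUNB rose by 0.72 at 8 h (adjusted p = 0.032), and JUND fell by 0.67 (adjusted p = 0.0066). FOS, FOSB and FOSL2 had estimates of 0, 1.45 and -0.60 at 8 h that did not pass the test (adjusted p = 0.99, 0.056 and 0.3). At 24 h FOS rose by 2.76 (adjusted p = 0.0033), FOSB by 3 (adjusted p = 0.0029) and JUNB by 1.19 (adjusted p = 0.0039), with JUND at -0.15 and FOSL2 at 0.02 (adjusted p = 0.43 and 0.98). FOSL1 was 0.20, 0.78 and 0.74 higher in TE13R on the log2 scale at 0, 8 and 24 h, and JUN differed by -0.02, -0.21 and -0.49. EHF, an epithelial ETS factor, fell by 2.86 at 8 h (SE 0.50, adjusted p = 0.0019), to values below the limit (17.9 in TE13R and 8.8 in TE13). GRHL2, a grainyhead factor, fell by 2.27 at 8 h (SE 0.23, adjusted p = 0.00028). Whether any of these factors acted on the members was not tested.

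The 2 lines are the only repeat of a time contrast, which leaves 2 residual degrees of freedom besides the prior's 5.75, and nothing says that the cultures were repeated. The calls of members depended on the settings of the test: without the filter on dim probes limma called 0 members in any of the 3 contrasts (1, 2 and 1 of 10 at an unadjusted p under 0.05), and without the line in the model TGM1 at 24 h against 0 h was the 1 call that was kept. For S100A8, S100A9 and SPRR1A the 0 h TE13 array was below the detection limit, so their change in TE13 and their difference at 0 h are bounds.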

How the data were processed

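Biotin-labelled RNA was hybridised to Illumina Human-6 V3 arrays, 1 for each line and time point. The authors used BeadStudio and deposited linear intensity values. These were background-subtracted and on 1 scale. The software version and the way of normalizing were not stated. DiffScores, which need detection p-values, were not computed. KY170 and KY170R arrays were left out. Array data carry no read depth, and the number of arrays limits the precision.

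The platform annotation gave 1 gene symbol to 27578 of the 48803 probes, several to 13 and none to 21212. RefSeq (GRCh38.p14) held 27541 of the 27578, with 0 symbols updated. The build of the array's design is not named, so the table's positions served only for gene order and the promoter windows. Negative intensities were raised to 0, and values were analysed as log2(intensity + 16). Probes in the upper 50% of values on at least 3 arrays were kept (24765), with the brightest by mean intensity for each gene (12783 genes). The detection limit was chosen after the data were seen, and a fold bound sets the brighter array against it.

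Time contrasts were fitted in limma 3.58.1 (R 4.3.3) with time and line as terms, eBayes with a mean-variance trend and Benjamini-Hochberg adjustment over all genes, at a threshold of 0.05. Line and time interaction leaves no residual degrees of freedom. The fit was tested on simulated data. The members and gene lists were chosen with earlier results of these data known. From each other list up to 4 genes with a 2-fold line difference at each time point and up to 4 called over time, largest first, could be named with full values, and other S100 and SPRR genes, AP-1 genes and genes without a call were named after their values were seen. Alternatives were other offsets, normalization, centring, filters, probe averaging, fold sizes, no trend, no line term, the methods' t-test, and leaving out each time point or line.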

Additional observations from a re-analysis of the deposited data

Results flagged for a closer look

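In 5 cases a member detected in both lines, on at least 1 of the 2 arrays compared in each, had log2 changes of opposite sign over time in the 2 lines. The difference is TE13R minus TE13. Opposite signs of SPRR2A, SPRR3 and IVL, not detected in TE13 at any time, were not counted. The difference was not tested, because each line and time point has 1 array. S100A8 at 24 h against 0 h changed by -0.35 in TE13R and 3.01 in TE13, a difference of -3.36, with the TE13 0 h array below the detection limit. SPRR1A at 24 h against 8 h changed by -0.22 in TE13R and 1.64 in TE13, a difference of -1.85. S100A9 at 24 h against 8 h changed by -1.08 in TE13R and 0.13 in TE13, a difference of -1.22. CSTA at 8 h against 0 h changed by -0.27 in TE13R and 0.61 in TE13, a difference of -0.88. SPRR1B at 24 h against 8 h changed by -0.47 in TE13R and 0.37 in TE13, a difference of -0.84.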

How the results depend on the processing

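The count of 5 members at least 2-fold higher in TE13R at all 3 time points was 4 to 6 under the alternatives run and 5 to 6 when a time point was left out. The count lower was 0, and 1 with an offset of 1 (IVL, below the detection limit). The 4 members called at 8 h against 0 h became 2 with an offset of 1 or without the mean-variance trend, and 0 without the filter on dim probes, without the line in the model and by the methods' t-test, unadjusted or adjusted by Benjamini-Hochberg. The 4 called at 24 h against 0 h became 1 without the line and 0 without the filter and by both forms of the t-test. The 1 called at 24 h against 8 h became 0 without the filter, the trend or the line, 2 by the unadjusted t-test and 0 after adjustment. Over all genes, the t-test after adjustment called 24 genes at 8 h against 0 h (7193 in the main analysis), 0 at 24 h against 0 h (7111 in the main analysis, 4185 by the unadjusted t-test) and 0 at 24 h against 8 h (2283 unadjusted), and without the filter 4445 and 0 genes were called in the last 2 contrasts. The 1648 genes at 24 h against 8 h became 475 without the trend and 0 without the line. At an unadjusted p under 0.05, limma called 1, 2 and 1 members in the 3 contrasts without the filter, 0, 1 and 2 without the line, and 2 at 24 h against 8 h without the trend, and at 24 h against 8 h 3765 genes without the filter and 2859 without the line. The causes were not tested.

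By member, over 10 alternatives, SPRR2A at 8 h kept its call in 3 (adjusted p 0.043 to 0.66), S100A8 at 8 h in 5 (0.039 to 0.67) and TGM1 at 24 h in 8 (0.001 to 0.18). Uncalled estimates changed sign for SPRR2A at 24 h (-0.39 with an offset of 1) and IVL (-0.55 at 8 h with an offset of 1, and -0.01 at 24 h against 8 h with an offset of 64 or median centring). The mean log2 difference between the lines of dim members moved with the offset: with 1 and 64 it was 5.05 and 1.63 for SPRR2A. The mean for CSTA was -0.19 without the 0 h arrays. By replicate number, no paired analysis was possible because each group has 1 array, while the time contrasts are paired by line through the line term. Signal near background limits IVL, S100A7, SPRR3 and, in TE13, SPRR2A.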
